A study of Homo sapiens with 4 samples.

Results

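Circular RNAs of PEX13 and of 7 other genes of peroxisome biogenesis were examined in MDA-MB-468 cells, a line established from a human breast cancer. The members were all deposited circles whose gene field named PEX13, PEX14, PEX5, PEX7, PEX3, PEX19, PEX2 or PEX26 and whose type was not antisense. This gave 78 of 211599 circles, of which 69 had at least 1 count, against 190152 in the whole table. PEX13 and its most abundant circle were selected on their difference between these same libraries, so the values of that circle and of the gene are given as a description and carry no test. The other 7 genes act in the same pathway.

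All 4 libraries came from a radiation-resistant derivative of the line that had received a total of 50 Gy in fractions. The control group comprised 2 libraries with a control short hairpin RNA (shCtrl), labelled wild type, and the knockdown group 2 libraries with a stable hairpin against HNRNPL (shHNRNPL). HNRNPL is an RNA-binding protein that regulates splicing, and the study asked which circular RNAs depend on it. The extraction protocol names a single HNRNPL hairpin, so every knockdown value rests on 1 hairpin in 1 derivative of 1 line, and the irradiation history is shared by all 4 libraries. Circular RNA was read by nanopore after copying with the Induro reverse transcriptase, which can travel around a circle several times, and amplification with phi29 polymerase.

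Peroxisomes are small organelles that oxidise very long and branched fatty acids, make ether lipids and handle hydrogen peroxide, and they import folded proteins from the cytosol. Peroxins are the proteins that build them: soluble receptors pick up cargo, a docking and channel complex in the membrane takes it in, ubiquitin ligases and an exporting ATPase return the receptors, and a further group inserts the membrane proteins. A circular RNA arises when the end of an exon is spliced back to the start of the same or an earlier exon. The level of a circle is therefore not the level of the gene's messenger RNA, which was not measured here.

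The libraries held between 282737 and 556578 counts each, and 3 counts, the upper limit that a count of 0 allows, correspond to between 0.539 and 1.06 counts per 100000. Control replicate 1 stood apart, with 70.9% of its counts in exon circles against 84.9% to 85.7% in the other 3 libraries, and the host-gene log2 fold changes of the members, and their calls, are also given without it. A fit without 1 library leaves a group of 1, which is then assumed to vary like the other group. No circle named HNRNPL, so the knockdown itself was not analysed here. Of 10 epithelial genes, 7 had circular counts (120 and 80.7 per 100000 in controls, 54.8 and 53.3 in knockdowns, whose part in the results was not tested), of which GRHL2 held 1071 of 1380 and EGFR 200. EPCAM had 9 and 13 counts in the controls against 8 and 10, while the keratins KRT8, KRT18 and KRT19 and all 6 fibroblast, 5 immune and 3 endothelial markers were at 0. The design text calls the libraries biological replicates without naming separate cultures, so p-values measure the spread between these samples. Fewer cells that express a gene and less circular RNA per cell cannot be told apart in such bulk libraries.

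The members held 559 counts. PEX13 alone held 442 of them (79.1%), and the other 7 genes together 117. Most members were rare: 41 of the 69 detected circles (59.4%) were seen in a single library, beside 55.3% of all circles that were not antisense. All 4 circles seen in all 4 libraries came from PEX13. Only 5 members reached the 10 counts needed for a test, 4 from PEX13 and 1 from PEX3. Of the members' counts, 87.5% lay in exon circles (84.5% over all circles not antisense), and 58.1% of those exon counts lay in circles of a single exon block, against 14% overall. That share belonged to PEX13: without it, 14.5% of the exon counts came from circles of 1 block. The dinucleotides that flank a back-splice are AG before the start and GT after the end at ordinary splice sites, and 60 of the 69 circles (87.0%) carried this pair, as did 85.9% of all circles not antisense.

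PEX13 encodes a membrane protein of the docking and import complex that binds the receptor PEX5 and helps to form the channel. The gene lies on the plus strand of chromosome 2 (GRCh38.p14, chr2:61017720-61051990 in RefSeq). Its main circle was a single exon block of 695 nt at chr2:61031419-61032113, flanked by AG and GT. Control replicates 1 and 2 held 110 and 134 of its counts and knockdown replicates 1 and 2 held 10 and 13, which is 23.3 and 24.1 per 100000 against 3.54 and 3.33. Both knockdown libraries thus lay far below both controls, and the replicates of each group lay close together. The means were 23.7 ± 0.560 and 3.43 ± 0.147 per 100000 (SD, n = 2), 6.90-fold lower in the knockdown, with a fitted log2 fold change of -2.83 beside a median of -0.39 over the 21576 circles tested. Leaving out control replicate 1 gave -2.60, and leaving out control replicate 2 gave -2.99.

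Most PEX13 counts lay in circles that hold this exon: the 695-nt block occurred in 10 of the 29 detected circles and in 384 of the 442 counts. The start at position 61031419 was used by 6 of the 29 detected circles and by 378 of the 442 counts (85.5%). Some circles with this start ran on into the downstream gene SANBR, to 61070500 (5 blocks) and 61083314 (10 blocks). The others ended at 61032113 (the main circle), 61045851, 61048573 or 61049192 and had 1, 2 or 3 blocks. The circle that ended at 61048573 and those that ran into SANBR held the blocks chr2:61045726-61045851 (126 nt) and chr2:61048472-61048573 (102 nt). The circle that ended at 61045851 held the 126-nt block without the 102-nt block. The circle that ended at 61049192 held the 126-nt block and an alternative last block, chr2:61048472-61049192 (721 nt). Over all detected PEX13 circles, the 126-nt block occurred in 14, the 102-nt block in 10 and the 721-nt block in 4. The ends at 61048573 and 61049192 lie 3417 and 2798 nt before the end of the gene in RefSeq, so none of these ends is that of the gene. The diagram of exon blocks shows this shared structure for the circles with at least 5 counts.

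**Figure D1:**
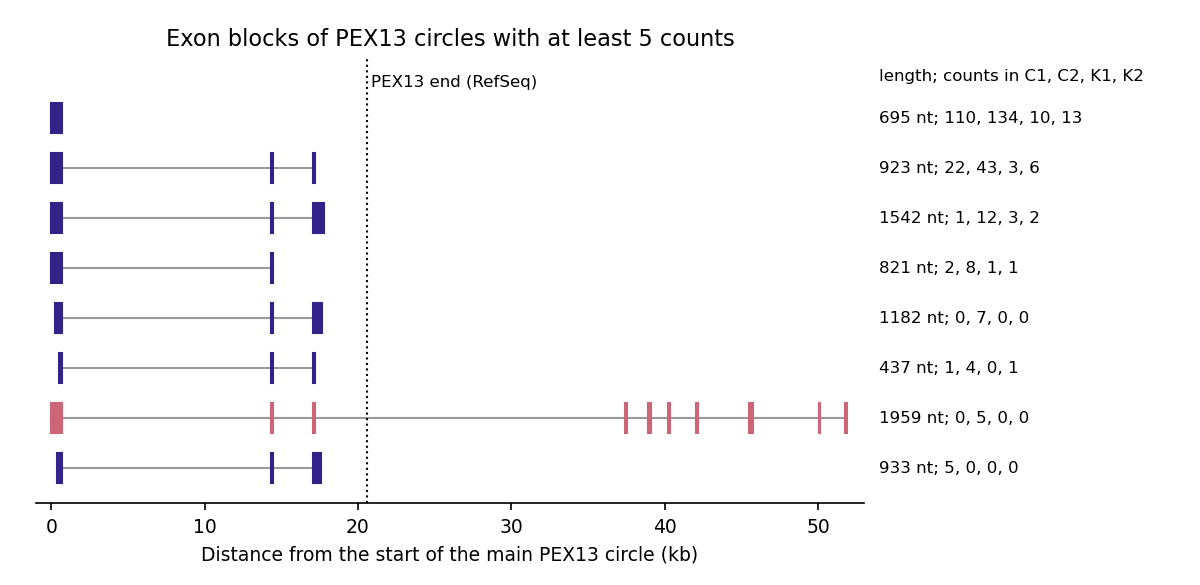
Exon blocks (thick bars) of the PEX13 exon circles with at least 5 counts, drawn to scale as distance in kb from the start of the main circle, with joining introns as thin lines, the RefSeq end of PEX13 as a dotted line, and counts in control replicates 1 and 2 (C1, C2) and knockdown replicates 1 and 2 (K1, K2) at the right. The first 4 circles share the start of the 695-nt main circle. The circle of 1959 nt, in rose, has the same start and runs on into SANBR. The 923-nt circle is drawn with the first of its 2 deposited isoforms.

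The circle of 3 blocks and 923 nt, chr2:61031419-61048573, was the next most abundant, with 22 and 43 counts in the controls against 3 and 6 (4.66 and 7.73 against 1.06 and 1.54 per 100000). The groups did not overlap. Its fitted log2 fold change was -2.21 ± 0.53 (SE). Its row listed a second isoform of 3237 nt, in which the first block is extended to 3009 nt, but gave no separate count for it.

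The remaining circles of the gene with at least 10 counts were scarce. The 3-block circle with the longer last block, chr2:61031419-61049192 (1542 nt), had 1 and 12 counts in the controls against 3 and 2, so the groups overlapped (log2 fold change -0.53 ± 1.27, SE). The 2-block circle chr2:61031419-61045851 (821 nt) had 2 and 8 control counts and 1 in each knockdown, lower without overlap but with a wide error (-1.50 ± 1.60, SE). These 3 circles share an exon, a start site and the libraries with the main circle and are part of the gene that was selected, so their values are also a description, with no test and no independent support for it. For comparison, both knockdown libraries lay below both controls for 22.9% of all circles tested and above them for 23.2%, so lack of overlap in either direction was common.

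PEX13 was also split by structure, with and without the main circle. Without it, the gene kept 44 and 98 counts in the controls against 15 and 18. Per 100000 this was 13.5 ± 5.86 against 4.96 ± 0.492 (SD, n = 2), 2.72-fold lower without overlap. The 5 other circles that start at 61031419 had 27 and 68 against 7 and 9 counts, 3.75-fold lower. The 23 circles that start elsewhere had 17 and 30 against 8 and 9 counts, 1.75-fold lower. For comparison, with scaling by library size alone, 73.1% of all host genes had a log2 fold change below 0, with a median of -0.67. A lower level on this scale was therefore common and not particular to PEX13. Intron circles of PEX13 overlapped between the groups, with 10 and 3 counts in the controls against 6 and 3 (2.12 and 0.539 against 2.12 and 0.768 per 100000). The most abundant of them were tied at 4 counts and went different ways. The circle chr2:61018119-61025349 (7231 nt, flanked by AG and AT) had 0 counts in both controls and 3 and 1 in knockdowns. The circle chr2:61051638-61054488 (2851 nt) had all 4 in control replicate 1. These folds are descriptions of 1 gene in which every set includes the same libraries.

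**Figure D2:**
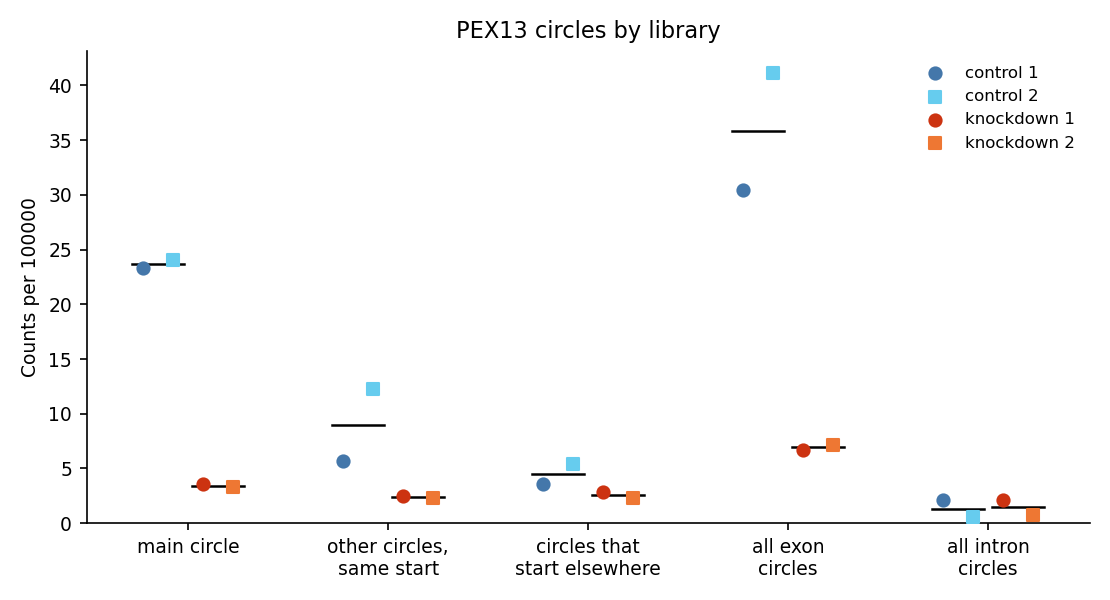
Counts per 100000 of PEX13 circles in each library, by set: the main circle, the other circles with its start, circles that start elsewhere, all exon circles and all intron circles; short lines are group means (n = 2). Knockdown libraries lie below controls in the first 4 sets, with main-circle means of 23.7 and 3.43, and overlap with controls for intron circles.

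The main circle, selected on these libraries, made up 71.4% of the gene's counts in control replicate 1 (95% exact binomial interval 63.6 to 78.4%) and 57.8% in control replicate 2 (51.1 to 64.2%). In the knockdown libraries it made up 40.0% (21.1 to 61.3%) and 41.9% (24.5 to 60.9%). Both knockdown shares lay below both control shares, but their intervals, which rest on 25 and 31 counts, overlapped that of control replicate 2, so these shares are a description. Intervals and limits here cover counting error only, since amplified copies carry no molecular identifiers. As a whole, the gene had 154 and 232 counts in the controls against 25 and 31, or 37.1 ± 6.42 against 8.39 ± 0.640 per 100000 (SD, n = 2), 4.43-fold lower.

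At the level of host genes, which sums circles that name 1 gene, PEX13 had a fitted log2 fold change of -1.82 beside a median of -0.27 over the 5911 host genes tested. Leaving out a control moved it to -2.09 (replicate 1 out) or -1.35 (replicate 2 out). Scaling by library size alone in place of the trimmed mean of M-values (TMM) moved that median by -0.41 and the median of circles by -0.12. Relative to the median of host genes, PEX13 was at -1.55 on the log2 scale with TMM and at -1.51 with library size, so its distance from the other host genes was nearly the same.

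Circles that named both PEX13 and SANBR linked the gene to its downstream neighbour. SANBR encodes a regulator of antibody class switching and begins 13881 nt after the end of PEX13, on the same strand. There were 3 such circles with 10 counts in all, 2 and 8 in the controls and 0 in both knockdowns. Each joined the 102-nt PEX13 block to the SANBR block chr2:61068849-61068985, and the most abundant, chr2:61031419-61083314 (10 blocks, 1959 nt), had 5 counts, all in control replicate 2. Control replicate 1 held 0.423 per 100000, below the limits of 1.06 and 0.768 that a count of 0 allows in the knockdowns, and control replicate 2 held 1.44, above them, so the groups were not separated at this depth.

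Circles of SANBR itself were ordered the other way. They had 41 and 101 counts in the controls against 123 and 194, or 8.68 and 18.1 against 43.5 and 49.7 per 100000. Here the knockdown libraries were both the higher ones, with means of 13.4 ± 6.69 and 46.6 ± 4.36 (SD, n = 2), 3.47-fold higher. The fitted log2 fold change, 2.05 ± 0.48 (SE), did not pass (edgeR, adjusted p 0.0786). It passed at 1.54 with control replicate 1 left out and at 3.02 with replicate 2 left out, fits in which 22.2% and 35.9% of all host genes passed, and it did not pass when either knockdown was left out (adjusted p 0.182 and 0.421 in edgeR). SANBR circles that hold the block chr2:61068849-61068985, the one joined to PEX13 in the circles above, had 17 and 40 against 71 and 92 counts, 4.51-fold higher.

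Among the host genes with at least 10 counts within 500000 nt of PEX13, PEX13 was the one with a log2 fold change below 0, under TMM, library-size and DESeq2 scaling alike. PEX13 was selected on its difference between these libraries, so its sign is a description. With TMM, 60.1% of all host genes lay below 0. The other genes in this window were PAPOLG (0.64 ± 0.49), REL (1.96 ± 0.82), PUS10 (0.47 ± 0.84), SANBR, USP34 (0.42 ± 0.47) and XPO1 (2.39 ± 0.66), where errors are SE. The smallest adjusted p among these in edgeR was that of SANBR, and XPO1 had 0.128, so 0 of the 6 passed. XPO1, which encodes a nuclear export receptor, had 131 and 279 per 100000 in controls and 842 and 965 in knockdowns. Library-size scaling brought PUS10 and USP34 to 0.03 and 0.07, and PUS10 was at -0.70 without knockdown replicate 2.

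**Figure D3:**
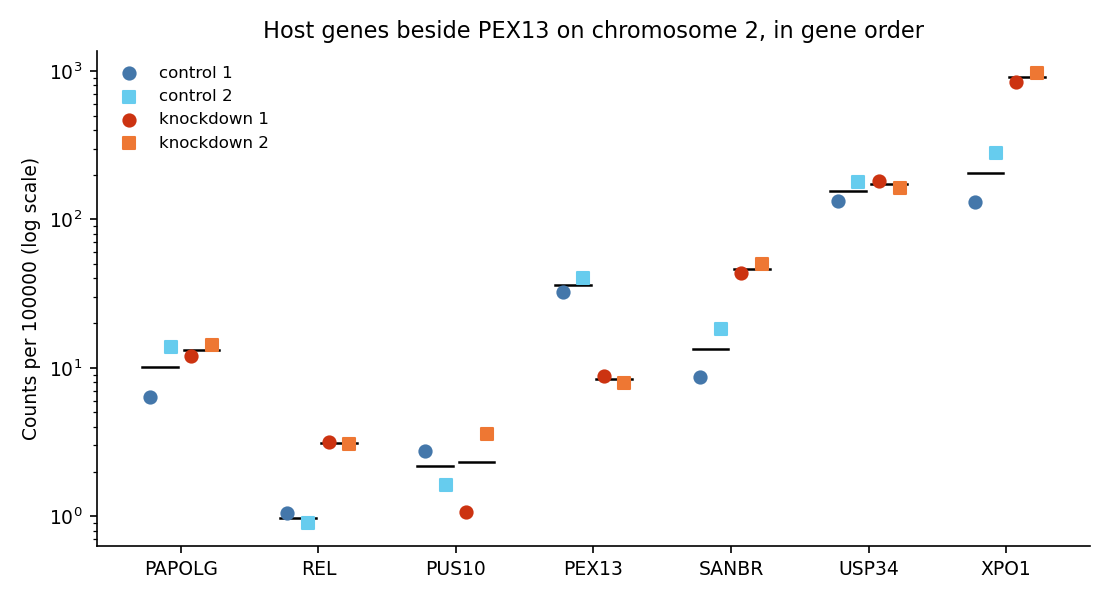
Circular counts per 100000 (log scale) of PEX13 and of host genes within 500000 nt of it, in gene order along chromosome 2; points are libraries and short lines are group means (n = 2). Knockdown libraries lie below controls for PEX13 (8.84 and 7.94 against 32.2 and 40.2), and above controls for REL, SANBR and XPO1. Of all host genes tested, 36.1% had both knockdowns below both controls and 15.9% had them above.

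PEX14 encodes the partner of PEX13 in the docking complex. Its 8 circles were all of the intron type, with 14 and 0 counts in the controls against 3 and 10 (2.96 and 0 against 1.06 and 2.56 per 100000). The control libraries bracketed both knockdowns. The log2 fold change of the host gene was 0.77 ± 1.35 (SE, adjusted p 0.831 in edgeR), and its sign turned to -0.039 without control replicate 2 and to -0.032 without knockdown replicate 2. Without control replicate 1, whose intron share was 19.7% against at most 10.6% in the other libraries, the remaining control had 0 counts and the gene passed as higher (log2 fold change 6.07, adjusted p 0.00633 in edgeR, with a fitted value that depends on the prior count). Its most abundant circles were chr1:10480959-10483070 (6 and 0 against 0 and 1 counts), chr1:10508748-10509787 (6 counts, all in control replicate 1) and chr1:10550180-10550992 (2 and 3 counts, all in knockdowns). Antisense circles of PEX14, which are not members, had 22 counts, all in control replicate 1.

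The cargo receptors were PEX5, which carries most matrix proteins, and PEX7, which carries a small group with another signal and also needs PEX5. PEX7 (chr6:136822592-136913934) had 12 and 22 counts in the controls against 1 and 2. Per 100000 this was 2.54 and 3.95 against 0.354 and 0.512, with both knockdown libraries below both controls. On the pooled counts the knockdown was lower by a ratio of 7.42 (95% exact counting interval 2.33 to 37.7). Over replicates the log2 fold change of -2.53 ± 1.01 (SE) did not pass (edgeR, adjusted p 0.278). The adjusted p in edgeR was 0.00448 without control replicate 1 (-2.90), 0.178 without control replicate 2 (-1.86), and 0.890 and 0.923 without knockdown replicates 1 and 2. In the fit in which it passed, 22.2% of all host genes passed as well.

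The PEX7 counts were spread over 10 detected circles, none with more than 8 counts. The most abundant were chr6:136842464-136846181 (an intron circle of 3338 nt, 0 and 7 against 0 and 1 counts), chr6:136845615-136898241 (6 blocks, 564 nt, 3 and 4 against 1 and 0) and chr6:136825214-136846181 (5 blocks, 523 nt, 2 and 3 against 0 and 0). No single PEX7 circle reached 10 counts, so none could be tested alone. PEX5 had 1 circle, an intron circle at chr12:7193336-7195983, with 2 counts in knockdown replicate 1 and 0 in the other libraries.

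PEX3 anchors in the peroxisomal membrane and receives new membrane proteins from PEX19, their soluble chaperone. Over all its circles PEX3 had 6 and 7 counts in the controls against 6 and 12 (1.27 and 1.26 against 2.12 and 3.07 per 100000). The knockdown libraries were both above the controls, and the pooled ratio was 2.12, higher in the knockdown, with a 95% exact counting interval of 0.980 to 4.70. Of its 15 circles, 8 also named another gene. Those that named PEX3 alone had 0 and 6 counts in the controls against 5 and 11, with a log2 fold change of 2.22 ± 1.33 (SE, adjusted p 0.463 in edgeR). The log2 fold change was 1.28 without control replicate 1 (adjusted p 0.254 in edgeR). Without control replicate 2, where 35.9% of all host genes passed, the remaining control had 0 counts and the gene passed as higher (adjusted p 0.00153 in edgeR, again with a fitted value that depends on the prior count).

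PEX3 circles, like those of PEX13, shared boundaries. The end at 143474856 on chromosome 6 was used by 3 circles and 17 of 31 counts, 0 and 2 in controls and 4 and 11 in knockdowns. The main PEX3 circle, chr6:143470961-143474856 (5 blocks, 487 nt), had 0 and 2 counts against 2 and 7, with a log2 fold change of 2.66 ± 1.72 (SE). It was the 1 circle outside PEX13 that could be tested and did not pass (adjusted p 0.449 in edgeR), beside 0.0% of all 21576 circles called. The 8-block circle chr6:143459085-143474856 (745 nt) had 1 and 3 counts, both in knockdowns, and the intron circle chr6:143480542-143481810 had 3 counts in control replicate 2. PEX19 had 2 counts in 2 circles, chr1:160278292-160285141 and chr1:160278604-160279454, both in control replicate 1 and both naming a further gene.

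PEX2 is a subunit of the ubiquitin ligase that marks receptors for export, and PEX26 anchors the exporting ATPase to the membrane. PEX2, on chromosome 8, had 10 and 2 counts in the controls against 2 and 1 (2.12 and 0.359 against 0.707 and 0.256 per 100000), so the groups overlapped. Its host-gene log2 fold change was -0.96 ± 1.66 (SE, adjusted p 0.829 in edgeR) and turned to 0.46 without control replicate 1. Its most abundant circles, of 2287, 1674 and 514 nt, had 4, 3 and 2 counts. PEX26 had 3 counts in the circles chr22:18098898-18105317 and chr22:18094084-18095577, all in control replicate 1 and all shared with other genes.

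**Figure D4:**
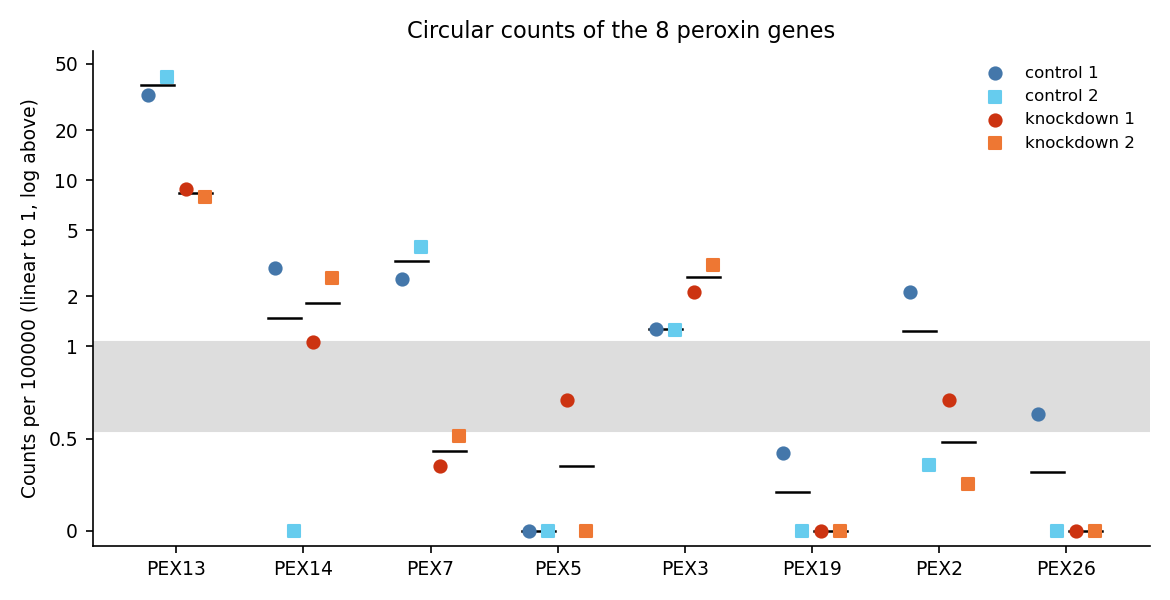
Circular counts per 100000 of the 8 peroxin genes in each library (axis linear to 1 and logarithmic above); short lines are group means (n = 2), and the grey band spans the limits of 0.539 to 1.06 per 100000 that a count of 0 allows in the 4 libraries. PEX13 has the most counts in every library, PEX7 is lower and PEX3 higher in both knockdowns, and PEX5, PEX19 and PEX26 are within or below the band.

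Of the members' host genes, 5 reached 10 counts. The 4 besides PEX13 were tested and 0 passed in edgeR, beside 1.51% of all 5911 host genes called. With limma voom 0 of the 4 passed as well, beside 5.75% of all host genes called by that method. PEX7 was the 1 at an unadjusted p under 0.05 in edgeR, as were 887 of all host genes (15.0%). Of these 4, PEX7 was lower in both knockdown libraries than in both controls, beside 36.1% of all host genes, and PEX3 was higher in both, beside 15.9%. PEX13 held the most counts in every library. In the control libraries PEX7, PEX14, PEX3 and PEX2 came next, and the range of each overlapped that of the next, so their order is not settled; these are counts of circles and were not scaled to length. The 7 other genes summed to 9.95 and 5.57 per 100000 in controls and 4.95 and 6.40 in knockdowns, which overlapped. Their exon circles alone summed to 5.72 and 3.77 against 2.48 and 3.58, lower without overlap, although replicate 2 of each group differed little. Only PEX13 had more than 1 circle with 10 counts, so no other member could be tested for unequal change among its circles.

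A list of 58 further peroxisome genes gave the wider pathway. Circular counts were found for 36 of them, 22 were at 0, and 30 were tested as host genes. None passed in either direction in edgeR (smallest adjusted p 0.0921), and 1 had an unadjusted p under 0.05, beside 15.0% of all host genes. The median log2 fold change was 0.03 beside -0.27 over all host genes, with 15 genes below 0 and 15 above. With library-size scaling the median was -0.37 beside -0.67, with 19 below and 11 above. The list median thus lay 0.29 above that of all host genes with TMM and 0.31 above it with library size, while its sign changed with the scaling. In 13 of the 30 tested genes (43.3%) both knockdown libraries lay below both controls, beside 36.1% of all host genes, and in 3 (10.0%) they lay above, beside 15.9%.

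The gene at an unadjusted p under 0.05 was GNPAT, named after its values were seen. It catalyses the first step of ether lipid synthesis. It had 40 and 55 counts in the controls against 3 and 7, or 9.17 ± 1.00 against 1.43 ± 0.517 per 100000 (SD, n = 2), and the groups did not overlap. Its log2 fold change of -2.33 did not pass in edgeR (adjusted p 0.0921). With 1 control left out the log2 fold change was -2.54 (replicate 1) or -1.90 (replicate 2). With 1 knockdown left out it was -2.03 (replicate 1) or -2.81 (replicate 2). DESeq2 gave an adjusted p to only 15 genes of the list and called 0 of these. It called 6.59% of all host genes that were given an adjusted p. Limma voom called GNPAT as lower, beside 5.75% of all host genes called by limma voom.

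By circular counts, the leading list genes above 0 were ATM (0.80), a kinase of the DNA damage response that also acts at peroxisomes, ABCD3 (0.51), a fatty acid transporter, and USP9X (0.30, and -0.046 with library-size scaling), a deubiquitinating enzyme. Those below 0 were TRIM37, an ubiquitin ligase (-0.0032, and 0.015 with DESeq2 size factors), VPS13D (-0.27), a lipid transfer protein, and HSPA9 (-0.92), a mitochondrial chaperone. ABCD3 had 174 and 422 counts in the controls against 196 and 253, and ATM 546 and 1788 against 1015 and 1123, so for both the groups overlapped. Without control replicate 1 the log2 fold changes of ATM, ABCD3 and USP9X were 0.18, -0.0044 and -0.056. Without control replicate 2 they were 2.07, 1.45 and 0.92. In the same order of fits TRIM37 was at -0.13 and 0.26, VPS13D at -0.19 and -0.23, and HSPA9 at -1.27 and -0.25. HSPA9 had 60 and 108 against 16 and 32 counts, lower without overlap per 100000. Of the other peroxins in the list, PEX6 had 5 and 4 counts in the controls against 0 and 1, and PEX11A had 3 counts in control replicate 1.

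**Figure D5:**
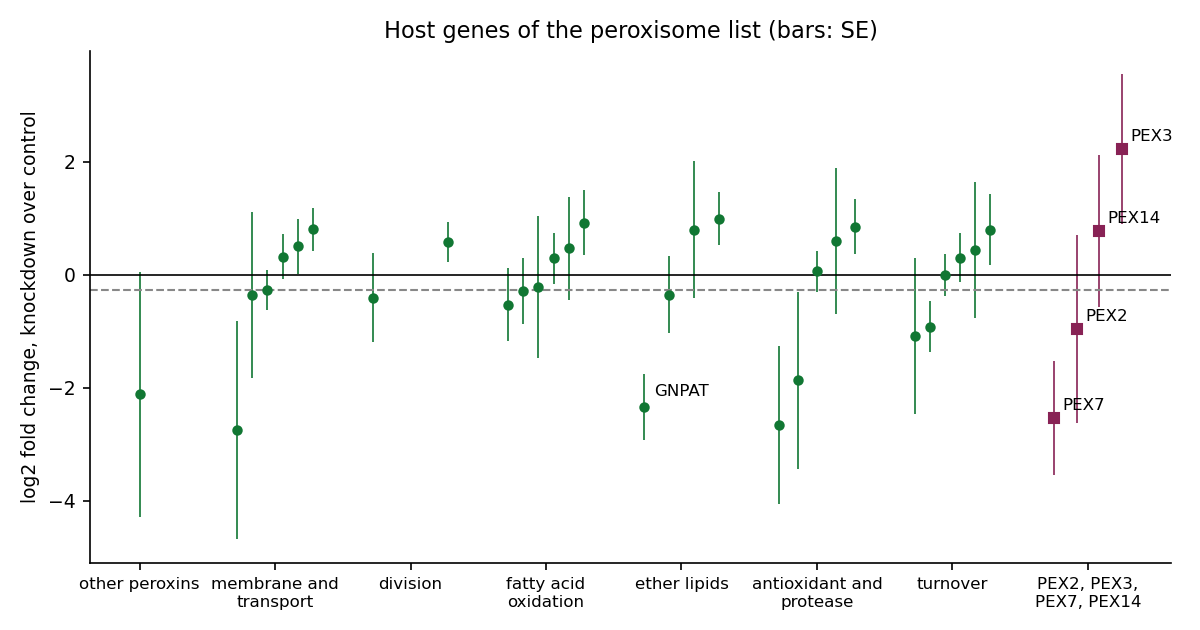
Host-gene log2 fold change (knockdown over control, TMM scaling) of the 30 tested genes of the peroxisome list by function (circles) and of PEX2, PEX3, PEX7 and PEX14 (squares); bars are SE and the dashed line is the median of all host genes, -0.27. The points lie on both sides of 0 and none passed an adjusted p of 0.05; GNPAT, at -2.33, had an unadjusted p under 0.05.

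Besides the main PEX13 circle, 1868 circles of any type had at least 100 counts. Those of them that were not antisense and not members were ranked by likeness to it. The measure was the Euclidean distance of centred log2(counts per 100000 + 0.5) over the 4 libraries. The nearest 5 came from SEPSECS (distance 0.506), PHKB (0.583), RNF19A (0.593), UBE3C (0.635) and UBR1 (0.646). SEPSECS had 41 and 50 counts in the controls against 5 and 6, and PHKB 176 and 212 against 27 and 31. The 5 had between 5 and 14 exon blocks, whereas the PEX13 circle has 1. All 5 were lower in both knockdown libraries, which the choice by likeness fixes.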

How the data were processed

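Circular RNA was measured in 4 nanopore libraries, 2 control and 2 knockdown. The authors deposited a table of whole-number counts per back-splice position, not normalized, with a circle length in nt and the exon blocks. The build GRCh38.p14 is named in the submitters' processing notes; base caller, aligner and filters were not given in the sources used here. Gene spans are those of the RefSeq table of that build, which held all 8 members. No genome or protein sequence was used.

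Levels are counts per 100000 of a library's total. Differences were tested with edgeR 4.0.16 (R 4.3.3; quasi-likelihood test, TMM, Benjamini-Hochberg adjustment over all features, threshold 0.05) on circles with at least 10 counts, and on host genes summed over circles that name 1 gene and are not antisense. Standard errors come from the F statistic. DESeq2 1.42.0, limma 3.58.1, other filters and scalings, and leaving out each library were alternatives. With 2 against 2 libraries an exact permutation test cannot go below 0.333, so none is given.

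All member genes are named, with, for each, the 3 circles with the highest counts and every PEX13 circle with at least 10; list genes are those past the threshold, else the 3 with the highest counts in each direction. Other genes named are said to be so. Some genes of the peroxisome list are not reported here and were left out of its counts. The members, lists and rules were chosen with earlier results of these data known. Deviations of same-numbered libraries were weakly correlated (r = 0.07 over 4944 circles). With 2 libraries per group this cannot exclude a pairing by number. Replicate numbers were used as names in the main fit and as a block in an alternative.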

Additional observations from a re-analysis of the deposited data

How the results depend on the processing

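Of the 4 member circles fitted besides the main circle, 3 belong to PEX13, the selected gene, so they are a description without a test. The remaining one, of PEX3, was not called in edgeR. Nor was it called under any alternative that kept all 4 libraries and gave it an adjusted p. Of all circles, 10.5% were called with DESeq2, 12% with at least 5 counts in each of 2 libraries and 7.66% with replicate numbers as a block. For member host genes, 0 of 4, leaving out 1 library gave 0 to 2: PEX7 (lower) and PEX14 (higher) without control replicate 1, and PEX3 (higher) without control replicate 2; the last 2 then have a control at 0, so their fitted values are no bound, and 22.2% and 35.9% of all host genes were called in these fits. The block and the other settings run gave 0. DESeq2 gave no adjusted p for these genes and at least 40 counts left none, so neither has a value. For the peroxisome list, 0 of 30, the count was 1 with limma voom, without a filter and with the block (GNPAT each time, lower), and 0 to 9 when 1 library was left out (4 without control replicate 1, 9 without control replicate 2), beside 5.75%, 3.19%, 5.31%, 22.2% and 35.9% of all host genes in the same order. The log2 fold change of the main PEX13 circle, -2.83, was -2.95 with library-size scaling, -2.76 with voom, -2.95 without a filter, -2.74 with at least 40 counts, and -2.99 to -2.60 when 1 library was left out. Exon circles alone, added after seeing the data, gave -2.86. Leaving out 1 library gave -0.039 to 6.07 for PEX14 (0.77), with -0.032 without knockdown replicate 2 and the lowest value without control replicate 2, and -1.75 to 0.46 for PEX2 (-0.96), the highest without control replicate 1, so their signs turned. The cause of these changes was not tested. No fit of unequal change among circles could be made for members other than PEX13. Depth limits all 7 other genes: none held more than 37 counts, and 3 held 2 or 3.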

Other observations

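Antisense circles of the member genes, which the selection left out, numbered 22. PEX13 had 12 such counts, 7 and 5 in the controls and 0 in both knockdowns. PEX2 had 14 (5 and 9 in controls, 0 in both knockdowns), and PEX3 had 5 (0 and 2 in controls, 2 and 1 in knockdowns). PEX5 had 2, both in control replicate 2. PEX7 had 10 (7 in control replicate 1 and 3 in knockdown replicate 2), and PEX19 had 7, all in control replicate 1. Over all genes, antisense types made up 6.79% of that library and no more than 2.69% of any other, and the part of that library in these counts was not tested. Counts of 0 in the knockdowns allow up to 1.06 and 0.768 per 100000.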
